A study of Mus musculus with 2 samples.

Results

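Regulator of G-protein signalling (RGS) genes were described in lymphatic endothelial cells (LECs) from mouse embryonic skin, in 1 library labelled Dot1l knockout (the knockout-labelled library) and 1 control library labelled wild type. The 10 genes are Rgs1, Rgs2, Rgs3, Rgs4, Rgs5, Rgs10, Rgs14, Rgs16, Rgs18 and Rgs19, out of 21 genes named Rgs followed by a number and 24319 rows in all. They were taken by gene symbol, and the choice was made with the values of these libraries known, so their differences are a description. The embryos were of strain C57BL/6 at E15.5 (embryonic day), and the knockout is described in the labels as endothelial. Dot1l encodes the methyltransferase of lysine 79 on histone H3. Each library was made from RNA pooled from 2 to 3 biological replicates, so there is 1 library per genotype, no spread between replicates and no test. The promoter that drove the deletion, the deleted part of Dot1l and the way the cells were purified were not stated in the labels. A protocol for growing primary dermal LECs in culture is also in the labels.

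RGS proteins are GTPase-activating proteins. A G-protein-coupled receptor loads a G-alpha subunit with GTP, and an RGS protein that binds this active subunit speeds the hydrolysis of the GTP and so shortens the signal. Most members act on the Gi and Gq classes. The small proteins of the R4 subfamily are little more than the RGS domain, those of the R7 subfamily pair with the G-beta subunit encoded by Gnb5, and the larger R12 proteins carry further domains. In vessels, Rgs5 is a marker of pericytes, and in leukocytes Rgs1 and Rgs18 are known for limiting the response to chemokines and other attractants.

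Dot1l itself was at 10.4 FPKM (fragments per kilobase of transcript scaled to the mapped fragments of the library) in the knockout-labelled library and 5.86 FPKM in control. The value covers the whole gene and therefore does not check the label. Markers of lymphatic endothelium were present in both libraries, with Prox1, the transcription factor of lymphatic fate, at 13.1 FPKM in the knockout-labelled library and 59.3 FPKM in control. Of 8 such markers kept, 7 were at least 2-fold lower in the knockout-labelled library, and 11 of 12 pan-endothelial markers were, beside 15.49% of all genes. The exceptions were Lyve1, at 552.5 FPKM in the knockout-labelled library and 526.4 FPKM in control, and Eng, at 16.7 FPKM and 29.8 FPKM. Ccl21a, another lymphatic marker, was under 1 FPKM in both libraries and was not kept. The depth is not stated. From the step of the low values it was estimated at about 9080000 fragments in the knockout-labelled library and 10200000 in control. In RNA of a whole library, fewer cells of a type and less RNA per cell cannot be told apart.

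The sequences before the start site of a pair of genes that were higher in the knockout-labelled library (Rgs2 and Rgs10) and of a neighbouring pair with lower values there (Rgs5 and Rgs4) are shown first, so that the values can be read beside the regulatory DNA. Each runs over the 250 bases before the RefSeq start in GRCm38.p6, in the direction of transcription. Capitals mark letters found on either strand that spell one of 4 common promoter elements. The first is the TATA box, searched as TATAAA. The second is the GC box of SP-family factors, searched as GGGCGG. The third is the site of the factor NF-Y, searched as CCAAT. The last is the core of the cyclic AMP response element, searched as TGACG. Of the 10 members, 7 had a window in the set of promoter sequences used, and Rgs1, Rgs14 and Rgs18 had none.
Rgs2, chr1:144004150-144004399, minus strand: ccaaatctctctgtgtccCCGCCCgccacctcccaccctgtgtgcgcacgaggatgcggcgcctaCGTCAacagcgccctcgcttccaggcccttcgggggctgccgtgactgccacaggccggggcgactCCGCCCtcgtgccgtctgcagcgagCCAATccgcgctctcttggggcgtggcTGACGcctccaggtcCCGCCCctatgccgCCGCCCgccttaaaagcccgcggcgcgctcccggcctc
Rgs10, chr7:128418173-128418422, minus strand: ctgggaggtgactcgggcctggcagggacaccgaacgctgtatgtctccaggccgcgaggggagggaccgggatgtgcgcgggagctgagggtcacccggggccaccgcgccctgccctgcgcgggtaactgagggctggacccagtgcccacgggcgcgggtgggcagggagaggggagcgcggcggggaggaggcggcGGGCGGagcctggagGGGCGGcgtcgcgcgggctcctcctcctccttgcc
Rgs5, chr1:169655251-169655500, plus strand: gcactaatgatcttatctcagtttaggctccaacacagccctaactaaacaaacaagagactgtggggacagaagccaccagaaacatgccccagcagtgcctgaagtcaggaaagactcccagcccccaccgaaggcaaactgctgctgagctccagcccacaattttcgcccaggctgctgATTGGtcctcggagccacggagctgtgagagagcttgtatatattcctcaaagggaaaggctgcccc
Rgs4, chr1:169747643-169747892, minus strand: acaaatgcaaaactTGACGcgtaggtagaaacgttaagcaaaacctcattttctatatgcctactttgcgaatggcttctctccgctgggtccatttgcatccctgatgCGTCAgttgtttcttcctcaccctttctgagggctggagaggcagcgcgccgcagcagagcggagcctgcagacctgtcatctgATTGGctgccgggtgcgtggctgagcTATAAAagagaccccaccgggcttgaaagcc
The Rgs2 sequence held 4 GC boxes, 1 NF-Y site and 2 cyclic AMP cores, and the Rgs10 sequence held 2 GC boxes and none of the other 3 motifs. Rgs5 and Rgs4 held no GC box and 1 NF-Y site each, and Rgs4 also held a TATA box that began 31 bases before its start, and 2 cyclic AMP cores. Among 32851 promoter windows of the same length, 12.4% held the TATA box, 32.7% the GC box, 33.8% the NF-Y site and 17.8% the cyclic AMP core. GC content was 72.4% for Rgs2, 76.4% for Rgs10 and 53.6% for both Rgs5 and Rgs4, beside a median of 52.4% over all windows. These pairs were chosen for display and Rgs4 lay within 2-fold, so no contrast of higher and lower genes is read from them. A GC box was also in 1 of the 2 windows of Rgs3, a lower gene, in the window of Rgs16 and in 2 of the 3 windows of Rgs19. A match of letters is not evidence of a bound factor.

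RGS transcripts had a higher summed FPKM in the knockout-labelled library, and other genes led the sum there. The 21 genes summed to 735.8 FPKM in the knockout-labelled library and 164.1 FPKM in control. Rgs1 alone gave 63.2% of this sum in the knockout-labelled library and 0.845% in control. In control the pool was led by Rgs5, with 23.9%, Rgs16, with 22.3%, and Rgs19, with 15.8%, against 0.335%, 6.25% and 4.76% in the knockout-labelled library. Without Rgs1 the sums were 270.7 FPKM and 162.7 FPKM, a ratio of 1.66. These values were not brought to a common total. All rows summed to 530294 FPKM in the knockout-labelled library and 415537 FPKM in control, and the ratio of 1.66 is not corrected for this.

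**Figure D1:**
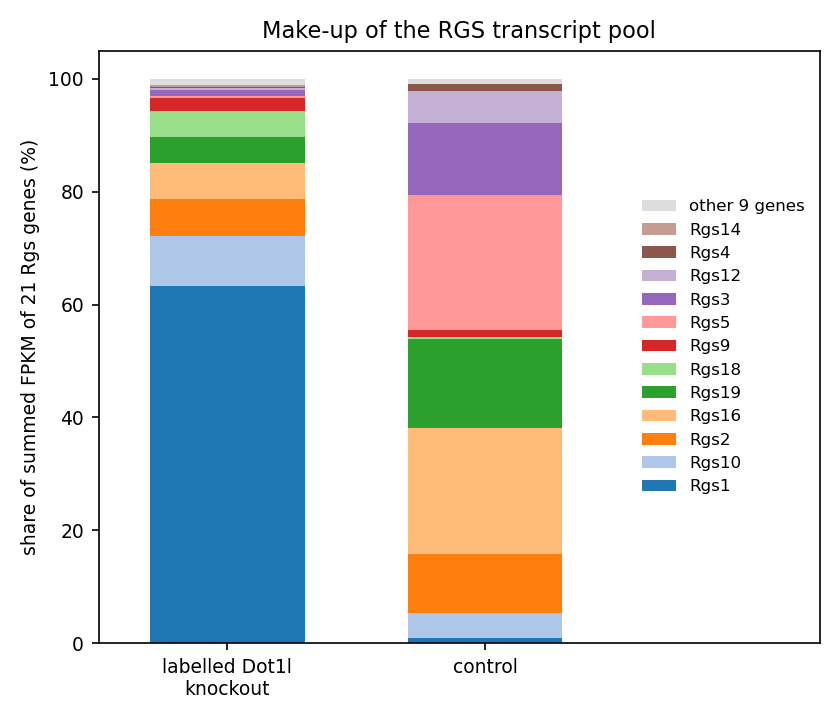
Share of the summed FPKM of 21 Rgs genes taken by each gene (vertical axis, percent), as stacked bars for the library labelled Dot1l knockout and the control library, 1 library each. Rgs1 fills 63.2% of the bar of the knockout-labelled library, and Rgs5 and Rgs16 are the widest bands of the control bar, with 23.9% and 22.3%.

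Of the 10 genes, 5 were at least 2-fold higher in the knockout-labelled library (Rgs1, Rgs18, Rgs10, Rgs14 and Rgs2), 2 were at least 2-fold lower (Rgs5 and Rgs3), and 3 lay within 2-fold (Rgs4, Rgs16 and Rgs19). Differences here are taken on log2(FPKM + 1), library labelled knockout minus control, which understates the change of low genes, and ratios are of the deposited FPKM. All 10 reached 1 FPKM in at least 1 library, the level needed to be counted. Among the 13296 genes at that level, 16.78% were 2-fold or more higher and 15.49% were 2-fold or more lower. The 10 genes were chosen on this same contrast, so nothing is read from their count. Their median difference was 0.95, beside 0.00 for all genes. Levels ran over 0.748 to 465 FPKM (median 33.9) in the knockout-labelled library and over 0 to 39.2 FPKM (median 12.2) in control.

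**Figure D2:**
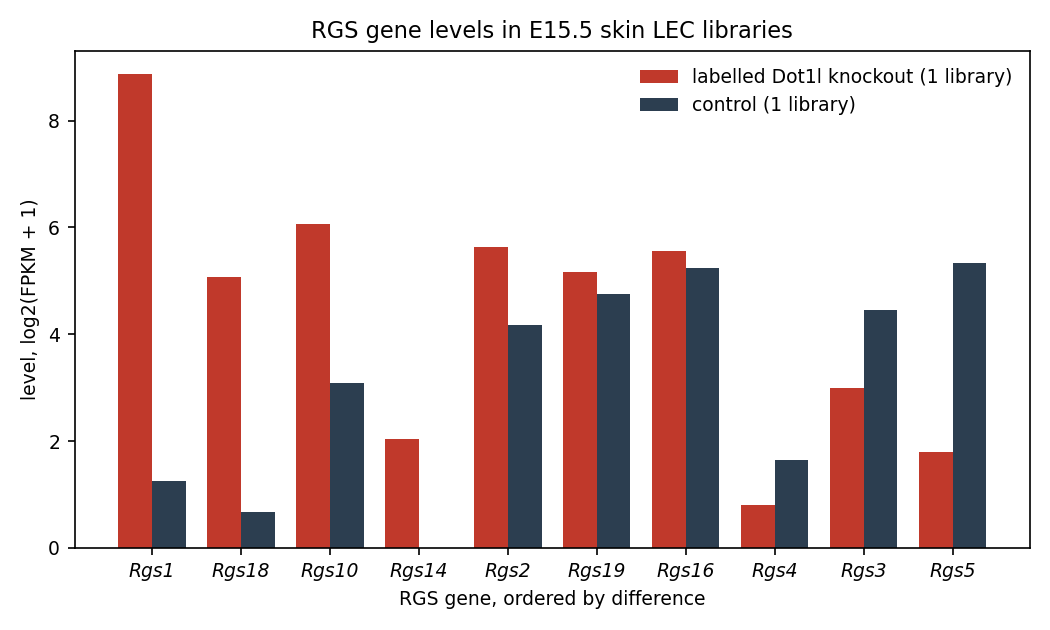
Level of each of the 10 RGS genes as log2(FPKM + 1) (vertical axis) in the library labelled Dot1l knockout (red, left bar) and in control (dark, right bar), 1 library each and so without error bars, ordered by the difference. Rgs1 has the tallest bar at 465 FPKM in the knockout-labelled library, Rgs14 has no bar in control, where it is listed at 0, and Rgs5 is the tallest control bar at 39.2 FPKM.

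Rgs1 and Rgs18, both R4 genes known from leukocytes, stood furthest apart among the RGS genes by log2 difference. This was not shared by every such gene, since Rgs16, also an R4 gene of leukocytes, lay within 2-fold. Rgs1, which limits chemokine receptor signalling in lymphocytes and macrophages, was at 465 FPKM in the knockout-labelled library and 1.39 FPKM in control, a 335-fold ratio and a log2 difference of 7.61. It ranked 19 of 13296 genes by that difference, and 144 by level in the knockout-labelled library against 11599 in control. At the median length of its coding transcripts, the control level of Rgs1 would be about 27.3 fragments. These transcripts run from 409 to 3841 nt, so that estimate is loose, and the denominator of the ratio rests on few fragments. Rgs18, a gene of megakaryocytes, platelets and myeloid cells, was at 32.8 FPKM in the knockout-labelled library and 0.586 FPKM in control, a 56.0-fold ratio and a log2 difference of 4.41. The single coding transcript of Rgs18 would give about 546 fragments in the knockout-labelled library and about 11 in control, so the denominator of its ratio rests on few fragments.

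Markers of leukocytes were higher in the same library, where 16.78% of all genes were at least 2-fold higher. All 11 macrophage markers kept were at least 2-fold higher in the knockout-labelled library, with a median difference of 6.06 and a summed level of 3421 FPKM against 61.1 FPKM in control. C1qb, a subunit of complement C1q, was at 327 FPKM in the knockout-labelled library and 0.344 FPKM in control. All 9 mast cell markers were at least 2-fold higher (median difference 6.66), with sums of 13809 FPKM and 116.9 FPKM. Hdc, which makes histamine, was at 1818 FPKM in the knockout-labelled library and 7.74 FPKM in control. No macrophage or mast cell marker was at 0 in the knockout-labelled library, while C1qc and Fcer1a were listed at 0 in control. Adgre1, C1qb, C1qc, Fcgr1, Ms4a2 and Fcer1a were under 1 FPKM in control, so they were kept only through the knockout-labelled library. The part of macrophages and mast cells in the RGS values was not tested.

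Markers of other blood cells differed in level. The 8 platelet and megakaryocyte markers summed to 27.8 FPKM in the knockout-labelled library and 3.43 FPKM in control. Among all genes, 16.78% were at least 2-fold higher. Of the platelet and megakaryocyte markers only 3 reached 1 FPKM, all 3 at least 2-fold higher. These were the chemokine gene Ppbp, at 18.5 FPKM in the knockout-labelled library and 0.673 FPKM in control, the integrin gene Itga2b, at 6.41 and 0.774 FPKM, and the receptor gene Gp1ba, at 1.88 and 0.153 FPKM. All 3 were under 1 FPKM in control and so were kept only through the library in which they are high. With a pseudocount of 5 the count of higher markers was 1. The platelet receptor genes Gp9 and Gp6 were listed at 0 in the knockout-labelled library. The 10 lymphocyte markers summed to 15.0 FPKM and 1.11 FPKM. Only 2 reached 1 FPKM (Cd4, at 9.77 and 0.133 FPKM, and Cd79b, at 4.04 and 0.394 FPKM), and both were also kept only through the knockout-labelled library. Cd3e, Cd8a, Ms4a1 and Ncr1 were listed at 0 in the knockout-labelled library. Of 7 neutrophil markers measured, 4 were kept and 3 of these were at least 2-fold higher, with sums of 315 FPKM and 6.96 FPKM. Most of that sum came from the calcium-binding proteins S100a9, at 205 FPKM in the knockout-labelled library and 1.63 FPKM in control, and S100a8, at 104 FPKM and 3.98 FPKM. Csf3r, the receptor of granulocyte colony-stimulating factor, was at 3.74 FPKM in the knockout-labelled library and was listed at 0 in control. Mpo was within 2-fold at 1.56 FPKM and 0.783 FPKM. Csf3r and Mpo were likewise kept only through the knockout-labelled library. The neutrophil granule genes Elane and Camp were listed at 0 in the knockout-labelled library.

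The R12 genes Rgs10 and Rgs14 and the R4 gene Rgs2 were also higher. Rgs10, a short protein best known from macrophages and microglia, was at 65.6 FPKM in the knockout-labelled library and 7.53 FPKM in control, an 8.72-fold ratio and a log2 difference of 2.97. At the median length of its coding transcripts, the control level of Rgs10 would be about 28.1 fragments. Rgs14, which joins an RGS domain to Ras-binding domains and a motif that holds inactive Gi subunits, was at 3.09 FPKM in the knockout-labelled library and was listed at 0 in control. A listed 0 can be a failed estimate, since Hmgcs1, an enzyme of the sterol pathway found in nearly every cell, was also at 0 in both libraries. No ratio is therefore given for Rgs14, and its log2 difference of 2.03 was 0.70 with a pseudocount of 5. Rgs2, which acts mainly on Gq subunits and is known for limiting vasoconstrictor signals, was at 48.9 FPKM in the knockout-labelled library and 17.0 FPKM in control, a 2.88-fold ratio and a log2 difference of 1.47. Unlike Rgs1 and Rgs18, Rgs2 was thus well above 1 FPKM in both libraries.

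Rgs5 and Rgs3 were the lower genes. Rgs5, the pericyte gene of the family, was at 2.46 FPKM in the knockout-labelled library and 39.2 FPKM in control, 15.9-fold lower, with a log2 difference of -3.54. It ranked 28 from the lowest of the 13296 differences. Rgs3, whose longer forms bind ephrin-B proteins through a PDZ domain, was at 6.97 FPKM in the knockout-labelled library and 21 FPKM in control, 3.01-fold lower, with a log2 difference of -1.46. Rgs4, a gene of neurons and heart muscle, was low in both libraries, at 0.748 FPKM in the knockout-labelled library and 2.11 FPKM in control. The ratio for Rgs4 was 2.83-fold lower, but its log2 difference of -0.83 stayed within 2-fold. It passed 2-fold with a pseudocount of 0.1 (-1.38) or after both libraries were brought to a sum of 1000000 (-1.34). At the length of its coding transcripts these levels would be about 17.4 fragments and 55.4 fragments.

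Markers of the cells in which Rgs5 is best known were lower as well. All 10 pericyte and smooth muscle markers kept were at least 2-fold lower in the knockout-labelled library, with a median difference of -2.30 and sums of 30.1 FPKM against 170.7 FPKM in control. The 10 became 6 with a pseudocount of 5 and also at a 3-fold threshold. Abcc9, a channel subunit that marks pericytes, was at 2.39 FPKM in the knockout-labelled library and 20.9 FPKM in control. Pdgfrb, the receptor that recruits pericytes, was at 10.02 FPKM and 21.5 FPKM. None of these markers was listed at 0 in either library, but Des and Higd1b were under 1 FPKM in the knockout-labelled library. Of 9 fibroblast markers 8 were at least 2-fold lower (median difference -1.96), with sums of 911 FPKM in the knockout-labelled library and 3569 FPKM in control. Median differences were also -2.26 for pan-endothelial and -2.25 for lymphatic endothelial markers. The lower level was thus not particular to pericyte and smooth muscle markers, and 15.49% of all genes were at least 2-fold lower. The part of any of these cell types in the Rgs5 and Rgs3 values was not tested.

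Rgs16 and Rgs19 were close between the libraries and high in both. Rgs16, an inducible R4 gene of leukocytes, liver and other tissues, was at 46.0 FPKM in the knockout-labelled library and 36.6 FPKM in control, a 1.26-fold ratio. Rgs19, an RZ protein first found as a partner of the Gi subunit, was at 35.0 FPKM in the knockout-labelled library and 25.9 FPKM in control, a 1.35-fold ratio. Their log2 differences were 0.32 and 0.42, and after both libraries were brought to a sum of 1000000 that of Rgs16 was -0.02, so its direction flipped, while that of Rgs19 was 0.08. A predicted gene on the opposite strand shares 10.1% of the exon bases of Rgs16 in GENCODE M21, and none of the other 9 genes shares exon bases with another gene there.

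**Figure D3:**
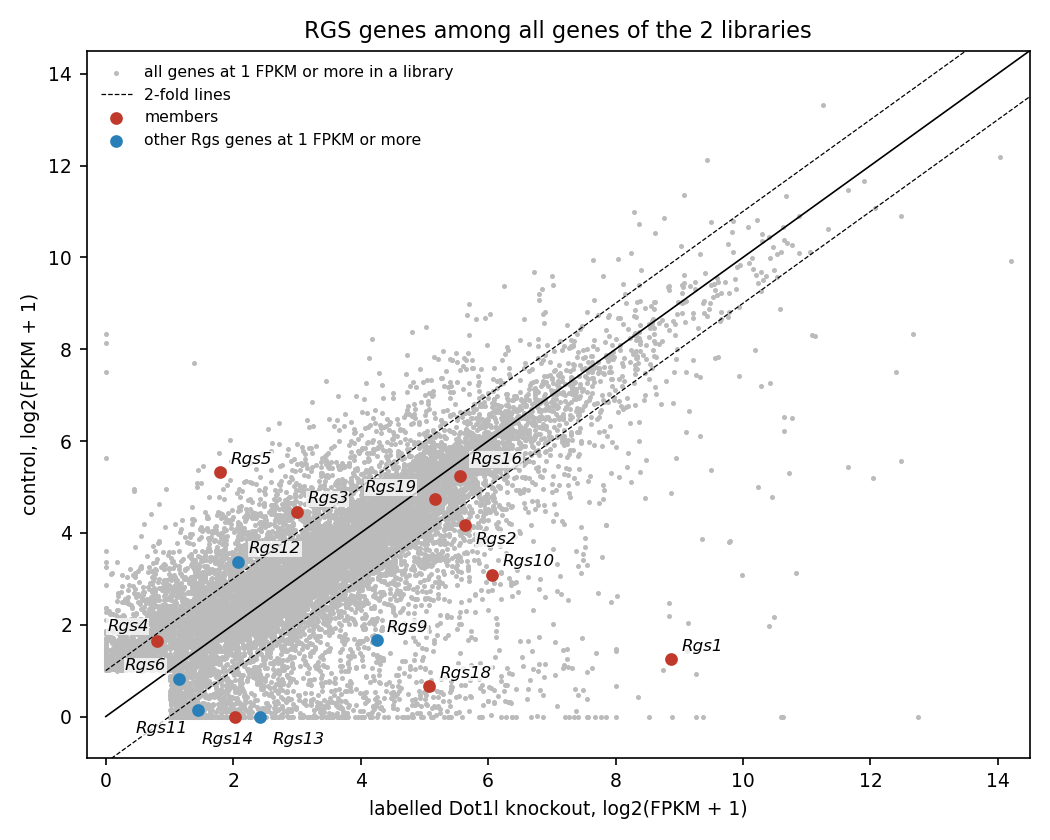
Level of every gene at 1 FPKM or more in at least 1 library (grey), as log2(FPKM + 1) in the library labelled Dot1l knockout (horizontal) and in control (vertical), with the 10 RGS genes in red and other Rgs genes at that level in blue. The solid line marks equal levels and the dashed lines 2-fold. Rgs1 lies far to the right near the bottom, at 465 and 1.39 FPKM, Rgs5 lies on the control side, and Rgs16 and Rgs19 lie between the dashed lines.

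Of the other 11 genes of the family, 5 reached 1 FPKM. Of these 5, 3 were higher by 2-fold or more and 1 lower in the knockout-labelled library, beside 16.78% and 15.49% of all genes. Rgs13 and Rgs11 were under 1 FPKM in control, so they were kept only through the library in which they are high. Nothing is read from this count. Rgs9, an R7 gene known from photoreceptors and striatal neurons, was at 18.02 FPKM in the knockout-labelled library and 2.17 FPKM in control. Rgs13, an R4 gene of mast cells and germinal-centre B cells, was at 4.36 FPKM in the knockout-labelled library and was listed at 0 in control. Rgs11, another R7 gene, was at 1.72 FPKM and 0.107 FPKM, and Rgs6 was within 2-fold at 1.21 FPKM and 0.767 FPKM. Rgs12, a large R12 scaffold, was the lower gene, at 3.23 FPKM in the knockout-labelled library and 9.34 FPKM in control. Rgs8, Rgs17, Rgs20 and Rgs22 were under 1 FPKM in both libraries, and Rgs7 and Rgs21 were listed at 0 in both. By subfamily, summed levels in the knockout-labelled library and in control were 607.5 and 117.9 FPKM for R4, 20.9 and 3.04 FPKM for R7, 72.0 and 16.9 FPKM for R12, and 35.3 and 26.05 FPKM for RZ. In the knockout-labelled library most of the R4 sum came from Rgs1 (465 FPKM). Most of the R7 sum came from Rgs9 (18.02 FPKM) and most of the R12 sum from Rgs10 (65.6 FPKM). These sums therefore do not describe each subfamily as a whole.

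Many of the genes lie together on the chromosome. In the RefSeq order of protein-coding genes, 11 of the 21 Rgs genes and 6 of the 10 lie on chromosome 1. Rgs2, Rgs13, Rgs1, Rgs21 and Rgs18 follow each other there with no other coding gene between them. Their log2 differences were 1.47 (Rgs2), 2.42 (Rgs13), 7.61 (Rgs1) and 4.41 (Rgs18), and Rgs21 was listed at 0 in both libraries. Rgs1, Rgs2 and Rgs18 were chosen on this same contrast, and Rgs13 was kept only through the library in which it is high, so nothing is read from their direction beside the 16.78% of all genes that were higher. Rgs5 and Rgs4 are also next to each other on chromosome 1, with log2 differences of -3.54 and -0.83. Neighbours within such a run are not independent observations.

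Genes with the most similar levels in both libraries were found by distance on log2(FPKM + 1) over the 2 libraries, among genes at 10 FPKM or more in at least 1 of them, for the 3 RGS genes at least 8-fold apart. With only 2 libraries, likeness means a similar pair of levels. Rgs1 lay nearest to C1qa, the complement subunit, at 429 FPKM in the knockout-labelled library and 1.01 FPKM in control, then to the Fc receptor gene Fcgr3 and the chemokine gene Cxcl2. Rgs18 lay nearest to Stfa2l1, then to Cx3cr1, the fractalkine receptor, at 31.6 FPKM and 0.461 FPKM, and to Tmem106a. Rgs5 lay nearest to Lpar4, a lysophosphatidic acid receptor, at 2.60 FPKM and 40.6 FPKM, then to Sulf1 and Tmem255a. The distances ran from 0.0763 (Lpar4) to 0.524 (Cxcl2) on the log2 scale.

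Of 12 G-alpha subunits kept, the class on which RGS proteins act, 5 were higher by 2-fold or more and 3 lower in the knockout-labelled library, beside 16.78% and 15.49% of all genes. Their median difference was 0.47, and at a 3-fold threshold the 3 lower genes became 1 (Gnas). Gna14 and Gna15 were under 1 FPKM in control, and Gnao1 was under 1 FPKM in the knockout-labelled library. Each of them was kept only through the library in which it is high, so nothing is read from this count. Gnaz, a Gi-class subunit of platelets and neurons, was at 46.3 FPKM in the knockout-labelled library and 1.60 FPKM in control, and Gna14, of the Gq class, was at 11.1 FPKM and 0.484 FPKM. Gnas, which encodes the stimulatory subunit and is not a usual substrate of the RGS proteins described here, had the highest level of the list in both libraries, with 313 FPKM in the knockout-labelled library and 2033 FPKM in control. Gna11, a partner of Gnaq in the Gq class, was at 4.76 FPKM and 14.6 FPKM. Of the Gi genes, chosen for mention after their values were seen, Gnai1 was at 142 FPKM in the knockout-labelled library and 18.01 FPKM in control, whereas Gnai2 was at 248 FPKM and 243 FPKM. Gnb5, the partner of the R7 proteins, was at 1.38 FPKM in the knockout-labelled library and 4.59 FPKM in control, while the summed R7 level was higher.

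Among 11 G-beta and G-gamma subunits kept, 1 was at least 2-fold higher (Gnb4, at 65.9 FPKM in the knockout-labelled library and 30.3 FPKM in control) and 2 were lower, beside 16.78% and 15.49% of all genes. The call of Gnb4 was lost after both libraries were brought to a sum of 1000000 or to the same upper quartile. The lowest was Gng11, at 37.3 FPKM in the knockout-labelled library and 164 FPKM in control. Receptor kinases and arrestins, which switch off receptors rather than G proteins, had 3 of 7 genes higher and none at least 2-fold lower. Arrb2 was at 65.5 FPKM in the knockout-labelled library and 5.75 FPKM in control, and Adrbk1, which encodes a receptor kinase, was at 50.2 FPKM and 8.06 FPKM. Of 10 genes for other proteins with an RGS domain and for R7 anchors, 8 lay within 2-fold, beside 67.73% of all genes, and the 2 lower ones were Arhgef12 (13.4 FPKM and 35.7 FPKM) and Axin2 (2.51 FPKM and 7.40 FPKM). The 5 other G-protein modulators kept had 1 higher gene (Gpsm3, at 9.31 FPKM and 1.46 FPKM) and 1 lower gene (Gpsm2, at 9.89 FPKM and 22.7 FPKM).

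Receptors were counted by the cells in which they are best known. Of 18 receptors of leukocytes kept, 15 were at least 2-fold higher in the knockout-labelled library and none was at least 2-fold lower. The shares over all genes were 16.78% and 15.49%. The median difference of the 18 was 3.22. All 15 were under 1 FPKM in control and so were kept only through the library in which they are high. Nothing is therefore read from this count. Adora3, an adenosine receptor of mast cells, was at 76.0 FPKM in the knockout-labelled library and 0.267 FPKM in control, and C3ar1, a complement receptor, was at 50.8 FPKM and 0.0939 FPKM. Cxcr4, the receptor of this list with the highest control level, was at 14.01 FPKM in the knockout-labelled library and 10.4 FPKM in control. Of 17 receptors of vessels and mural cells kept, 9 were lower by 2-fold or more and 1 higher, beside 15.49% and 16.78% of all genes. Their median difference was -1.03. Agtr1a, a lower gene, was under 1 FPKM in the knockout-labelled library, and P2ry2, the higher gene, was under 1 FPKM in control. Each was kept only through the library in which it is high. Aplnr, the apelin receptor, was at 2.44 FPKM in the knockout-labelled library and 52.8 FPKM in control, while Ednrb, an endothelin receptor, was at 77.1 FPKM and 44.4 FPKM. The 1 higher receptor became 0 with a pseudocount of 5 or with the same upper quartile. Among 12 adenylyl cyclases and phospholipases C-beta, 3 were higher and 3 lower, beside 16.78% and 15.49% of all genes. Of the 3 higher genes, Plcb2 was kept only through the knockout-labelled library. The 3 lower became 7 with a pseudocount of 0.1, 6 after both libraries were brought to a sum of 1000000 and 0 at a 3-fold threshold. Plcb2, a phospholipase of leukocytes, was at 22.9 FPKM in the knockout-labelled library and 0.118 FPKM in control, Adcy7 was at 52.1 FPKM and 2.31 FPKM, and Plcb4 was at 7.99 FPKM and 25.2 FPKM. The macrophage and mast cell markers given above were higher in the same library, and the pericyte and endothelial markers lower. The part of these cells in the receptor and effector values was not tested.

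**Figure D4:**
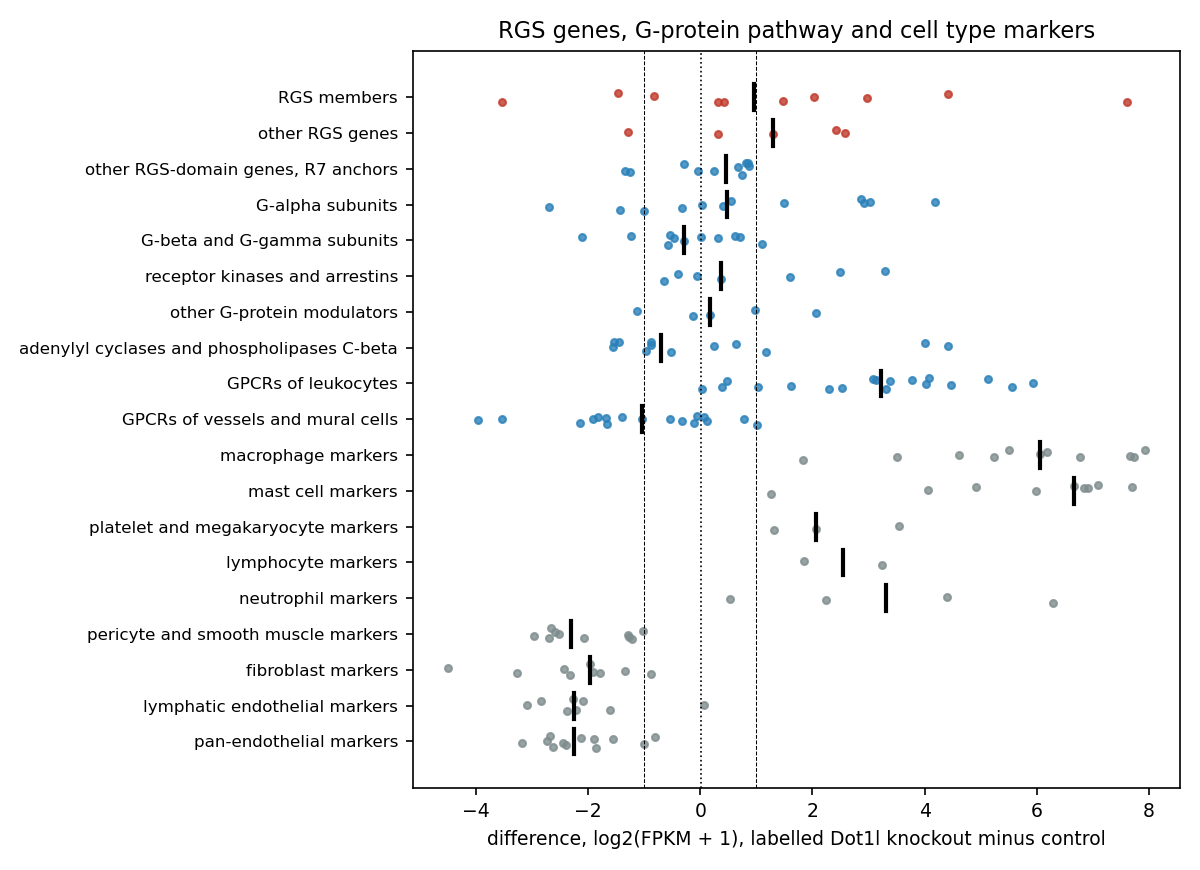
Difference of each gene kept, as log2(FPKM + 1) of the library labelled Dot1l knockout minus control (horizontal), for RGS genes (red), lists of the G-protein pathway (blue) and cell type markers (grey). Black bars are list medians, the dotted line is the median of all genes (0.00) and the dashed lines are 2-fold. The RGS genes spread over -3.54 to 7.61, a range that spans the medians of the pericyte markers (-2.30) and of the mast cell markers (6.66).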

How the data were processed

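RNA sequencing of 2 libraries was used, 1 per genotype, each a list of gene symbols with 1 value. The values were taken as FPKM deposited by the authors, since the submitters' processing notes name STAR 2.5.2b, Cufflinks 2.2.1, Cuffnorm, R 3.3.2 and the build mm9; the sources used here do not give any scaling between libraries. Total RNA with an integrity number above 7.0 was made into libraries with the ScriptSeq v2 kit, per the labels' protocols. Both lists held the same 24319 rows, of which 27 carried dates in place of symbols and were not named.

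Differences were computed in Python 3.11.15 with pandas 2.3.3 as log2(FPKM + 1), library labelled knockout minus control, over genes at 1 FPKM or more in at least 1 library, and a gene counted as higher or lower at 2-fold. The computation was tested on simulated data. With 1 library per group no test was possible, and the precision of a value is not known beyond its depth. Depth was estimated by scanning 500 step sizes over genes with a single transcript of at least 2500 nt, assuming fragments of 200 nt: at the best step, 76.0% of 175 values in the knockout-labelled library and 83.0% of 159 in control lay within 0.1 of a whole number of up to 5 fragments. Since whole numbers were not reached for every gene, no count model was fitted. The RGS genes and all lists were chosen with earlier results of these data known. Named genes are the RGS family, Dot1l, and from each list of more than 6 kept genes the 2 highest, the 2 lowest and the highest in level of each library, of which not all are printed, and other list genes that are named were picked with their values in view. For each RGS gene at least 8-fold apart the 3 nearest genes by level were named, with small RNAs, clone names and predicted genes left out. Ly6g was not in the files under that symbol, and Emr1 is listed as Adgre1. Sequences and gene order are from RefSeq (GRCm38.p6) and exon overlaps from GENCODE M21, both of another build than mm9, so no other coordinates are given. Some list members and neighbouring genes are not reported here by name.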

Additional observations from a re-analysis of the deposited data

How the results depend on the processing

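No paired analysis was possible because there was a single library per genotype, which also means that none could be left out. The log2 difference was recomputed with pseudocounts of 0.1 and 5, and after bringing both libraries to a common sum (1000000), a common upper quartile or an equal median gene. Under these 5 alternatives 8 of the 10 RGS genes kept their place above, below or within 2-fold, and the exceptions were Rgs4 and Rgs14. The lowest and highest differences were 6.20 and 8.29 for Rgs1, 2.76 and 5.58 for Rgs18, 2.495 and 3.107 for Rgs10, 1.16 and 1.52 for Rgs2, -4.08 and -2.56 for Rgs5, and -1.86 and -1.12 for Rgs3. The 2 lower RGS genes became 1 at a 3-fold threshold. Of the other Rgs genes, the 3 higher became 1 with a pseudocount of 5 or a minimum of 5 FPKM, and the 1 lower became 0 with a pseudocount of 5 or at 3-fold. The genes of the G-protein lists that were lower, 20 in all, became 9 at 3-fold and 13 with a pseudocount of 5. Over all genes, the 2231 higher genes were 3464 at 1.5-fold, 1298 at 3-fold and 1323 with a pseudocount of 5, and the 2060 lower genes were 3450, 906 and 921. Rescaling to a sum of 1000000 gave 3330 lower genes, shifted the median of all genes by -0.33 and took the share of higher genes among those called to 36.3%, beside 52.0% as deposited. As deposited, the sums were 530294 FPKM in the knockout-labelled library and 415537 FPKM in control. Rescaling to a common sum therefore lowers every value of the knockout-labelled library relative to control. Why the sums differ was not tested. Depth limits the low values most, such as Rgs4 in the knockout-labelled library and Rgs18 in control, at about 17.4 and 11 fragments.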

Other observations

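The coding genes that flank the run of Rgs genes on chromosome 1 were not uniformly higher in the knockout-labelled library. On the Rgs2 side, Uchl5, a proteasome-associated deubiquitinase, was at 55.5 FPKM in the knockout-labelled library and 28.7 FPKM in control. Trove2 beyond it was at 6.14 FPKM and 11.4 FPKM. The log2 differences of Uchl5 and Trove2, 0.93 and -0.80, lay within 2-fold. On the Rgs18 side, Brinp3 was at 0.0421 FPKM and 0.528 FPKM, under 1 FPKM in both libraries, so its direction is not read. Pla2g4a, the cytosolic phospholipase that releases arachidonic acid, was at 21.04 FPKM and 4.87 FPKM. Npl, a lyase of sialic acid that lies near Rgs16, was at 134.8 FPKM in the knockout-labelled library and 5.69 FPKM in control. Rgs8, between Npl and Rgs16, was under 1 FPKM in both. Rgs19 lies close to Sox18, an activator of Prox1, which was at 1.28 FPKM in the knockout-labelled library and 18.4 FPKM in control, while Rgs19 itself was within 2-fold. These genes were chosen by position, and no difference between neighbours was tested.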
